A study of Mus musculus with 3 samples.

Results

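The genes described here are the subunits of the oxidative phosphorylation machinery that are encoded in the nuclear genome. They were chosen by symbol, from those that begin with Nduf followed by a, b, c, s or v and a digit, with Uqcr, with Cox4 to Cox8 or with Atp5, and that have at least 1 protein-coding transcript and are not named as pseudogene copies. This gave 80 genes (81 gene identifiers, since Atp5o has a second identifier with no counts) of 22015 protein-coding genes of the nuclear genome. They were assigned to complex I (35 genes), complex III (8), complex IV (20) and complex V (17). The cells were primary macrophages grown from the bone marrow of C57BL/6J mice. All were exposed to Lipid A, the endotoxin component sensed by Toll-like receptor 4, at 100 ng/ml in a first period of 12 hours, then held for 12 hours after washout and given 100 ng/ml again in a last period of 25 minutes. RNA came from the cytosolic fraction (1 µg to start with), was depleted of ribosomal RNA and was sequenced in 3 libraries of this 1 group, biological replicates 1, 2 and 3. Sex and age of the animals are not given in the labels, and the 3 biosamples share a donor entry, so each SD covers only the spread between these libraries, which may be technical. With 1 group there is no untreated, unstimulated or nuclear library to set the values against, and in bulk samples fewer cells of a type and less RNA per cell cannot be told apart.

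Oxidative phosphorylation makes ATP in the inner membrane of mitochondria. Complex I (NADH dehydrogenase), complex III (cytochrome bc1) and complex IV (cytochrome c oxidase) pass electrons from NADH to oxygen and pump protons out of the matrix, and complex V (ATP synthase) lets the protons back and makes ATP. Most subunits are translated on cytosolic ribosomes from nuclear genes and imported, while mitochondrial DNA encodes a few subunits of the same complexes. Several complex IV subunits exist as paralogs, of which one is made in most tissues and another mainly in muscle, lung or testis. In macrophages, endotoxin is known to shift energy metabolism towards glycolysis.

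Library depth was 55517261, 21311556 and 45635014 expected counts in replicates 1, 2 and 3, so the shallowest library was replicate 2. Where no read was counted, up to 3 counts are allowed, or 0.0626, 0.153 and 0.0740 CPM of the nuclear protein-coding counts, a limit for counting error only. Levels are TPM, a length-corrected share of all transcripts that sums to the same total in each library. TPM corrects for transcript length and so allows genes to be compared. Nuclear protein-coding genes made up 29.6%, 40.4% and 34.8% of all TPM, the rest being other classes of gene, and TPM of a coding gene moves with that share. Comparisons of a gene between libraries therefore use protein-coding CPM, the gene's counts scaled to 1000000 counts of nuclear protein-coding genes. All 8 macrophage markers, such as Adgre1 (F4/80) and Csf1r, reached 1 TPM in each library, and none of 22 markers of T, B, dendritic, stromal, erythroid and muscle cells and neutrophils did so. The highest of those 22 was the neutrophil granule gene Ngp, at 3.50 TPM in replicate 2 and below 1 TPM in the others.

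Promoter sequence was available in the RefSeq table (build GRCm38.p6, 250 bases before to 50 after the start) for 65 of the 80 genes, in 70 windows, with 2 of the 65 found through a RefSeq synonym. Windows were searched on both strands for GCGCANGCG, the core bound by the nuclear respiratory factor NRF1, for CCGGAAG, which factors of the ETS family such as GABP bind, for AAGATGGCG, bound by YY1, and for TATAAA. The NRF1 core was in the windows of 18 of 65 genes (27.7%), against 7.03% of all 27025 genes and 17.2% of the 7445 detected protein-coding genes with a window. CCGGAAG was found in 14 genes (21.5%, against 9.93% and 23.5%), AAGATGGCG in 7 (10.8%, against 1.64% and 4.37%) and TATAAA in 7 (10.8%, against 15.7% and 8.23%). The letters are matches only and no binding was measured. The 6 sequences below, picked after the values had been seen, are bases before the RefSeq start that lie in no annotated gene. They show 1 matching promoter per complex and then an abundant and a silent paralog of the same complex IV subunit. Each is written 5′ to 3′ in the direction of transcription, all genes being on the minus strand, and capitals mark a match to the NRF1 core or CCGGAAG on either strand.
Ndufs5 (complex I, chr4:123718203-123718356, minus strand): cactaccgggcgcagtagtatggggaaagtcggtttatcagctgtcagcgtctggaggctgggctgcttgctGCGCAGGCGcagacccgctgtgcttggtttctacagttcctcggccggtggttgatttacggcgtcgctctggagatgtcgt
Uqcr11 (complex III, chr10:80406831-80406991, minus strand): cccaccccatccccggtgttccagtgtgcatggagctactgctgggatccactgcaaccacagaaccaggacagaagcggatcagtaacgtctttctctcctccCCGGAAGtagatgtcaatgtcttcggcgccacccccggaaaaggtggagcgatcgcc
Cox6a1 (complex IV, chr5:115348982-115349128, minus strand): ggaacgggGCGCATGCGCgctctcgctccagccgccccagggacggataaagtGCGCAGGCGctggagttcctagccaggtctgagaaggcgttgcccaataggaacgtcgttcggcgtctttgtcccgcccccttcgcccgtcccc
Atp5e (complex V, chr2:174464106-174464271, minus strand): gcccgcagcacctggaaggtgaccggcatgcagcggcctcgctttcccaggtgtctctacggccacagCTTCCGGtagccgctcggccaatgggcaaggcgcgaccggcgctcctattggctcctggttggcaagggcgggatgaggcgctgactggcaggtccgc
Cox8a (complex IV, chr19:7217617-7217786, minus strand): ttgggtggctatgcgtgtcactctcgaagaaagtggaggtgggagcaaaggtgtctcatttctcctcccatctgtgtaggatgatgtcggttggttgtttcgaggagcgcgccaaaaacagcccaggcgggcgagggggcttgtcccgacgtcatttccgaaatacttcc
Cox8b (complex IV, chr7:140900447-140900616, minus strand): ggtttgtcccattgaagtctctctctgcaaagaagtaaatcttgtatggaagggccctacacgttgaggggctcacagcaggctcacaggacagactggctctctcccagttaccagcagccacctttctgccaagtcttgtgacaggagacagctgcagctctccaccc

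The Ndufs5 stretch holds an NRF1 core that begins 98 bases before the start, and the Cox6a1 stretch holds overlapping cores on opposite strands from 162 bases before the start and a further core at 117. In Uqcr11 and Atp5e the capitals are ETS-type matches that begin 66 and 102 bases before the start. Outside the printed bases, the Uqcr11 window also held an NRF1 core from 5 bases before the start. The Cox6a1 window likewise held a CCGGAAG match from 16 bases before it. The 300-base window of Cox8a, the most abundant complex IV gene, held 19 CG dinucleotides, a CCGGAAG match that crosses the start and another after it. The window of its silent paralog Cox8b held 2 CG dinucleotides, a TATAAA match just after the start and none of the other 3 motifs. Cox7a2 and its nearly silent paralog Cox7a1 had 20 and 7 CG dinucleotides and none of the 4 motifs. Cox6b1 and its nearly silent paralog Cox6b2 had 17 and 10 CG dinucleotides. Cox7b, which is expressed, had 5, fewer than the 10 of its silent paralog Cox7b2. By complex, the NRF1 core was in 8 of 31 windowed genes of complex I, 2 of 5 of complex III, 1 of 14 of complex IV and 7 of 15 of complex V.

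Nearly all nuclear-encoded subunits were expressed in the cytosolic RNA, and at high levels. Of the 80, 73 were detected, which here means 1 TPM or more in each library (91.2%, against 42.1% of all nuclear protein-coding genes). The 7 that were not were all in complex IV. Of the 73 detected genes, 34 lay in the top 10% of detected protein-coding genes by mean TPM, where 10% is the background by construction. They were 5 of 35 in complex I, 5 of 8 in complex III, 11 of 13 in complex IV and 13 of 17 in complex V. The median over the 80 genes was 47.4, 52.0 and 53.8 TPM in replicates 1, 2 and 3 (51.1 ± 3.27, SD, n = 3). When TPM was rescaled to nuclear protein-coding genes, the medians were 160, 129 and 155, with replicate 2 the lowest. The median over all 9275 detected protein-coding genes was 9.90 ± 1.46 TPM. Together the 80 genes made up 1.47% ± 0.05 of all nuclear protein-coding TPM (SD, n = 3). Across the 73 detected genes, which share the same libraries, mean TPM was lower for longer genes (Spearman rho -0.48 with effective length, across genes, which are not independent replicates), and over the 9604 protein-coding genes whose mean reached 1 TPM the same rho was -0.15.

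**Figure D1:**
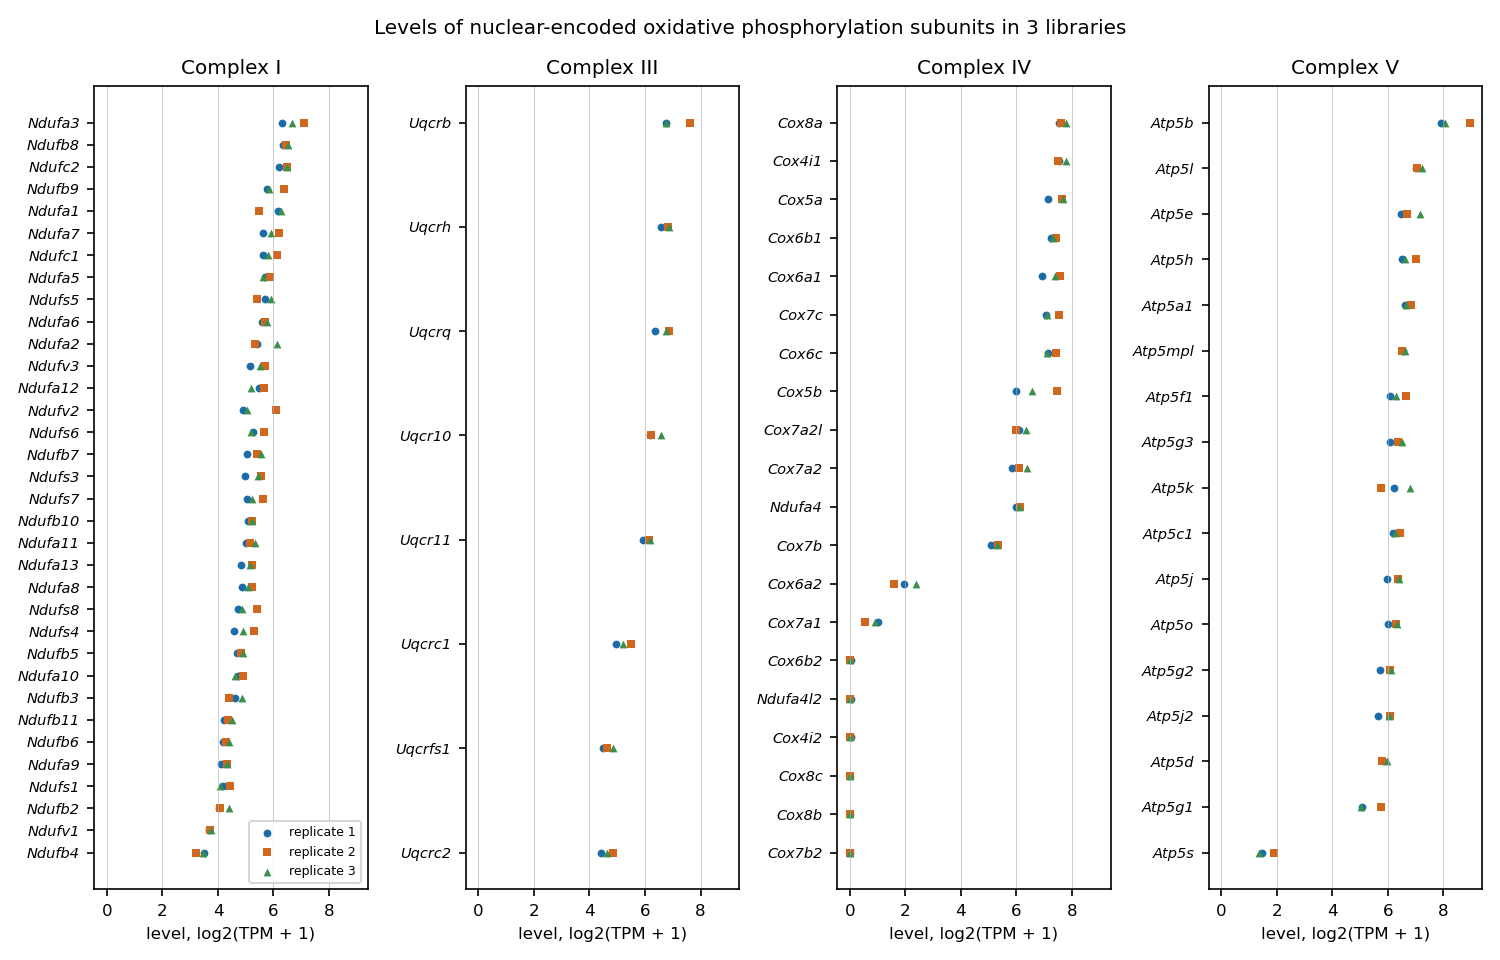
Levels of the genes as log2(TPM + 1) on the x axis (1 gene of complex I is not drawn), one row per gene and one panel per complex, with a point for each of the 3 libraries. All genes drawn of complexes I, III and V reached 1 TPM in each library, and 7 of the 20 genes of complex IV lie at or near 0.

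Complex I had the lowest median of the 4 complexes, 36.4 ± 4.93 TPM (SD, n = 3), and all of its 35 genes were detected. The highest was Ndufa3, a small membrane subunit (chromosome 7, 3617373 to 3620327, plus strand), with 78.7, 135 and 99.6 TPM in replicates 1, 2 and 3. It was followed by the accessory subunits Ndufb8 (85.6 ± 5.24 TPM), Ndufc2 (82.8 ± 9.79 TPM) and Ndufb9 (64.2 ± 16.2 TPM). The lowest was Ndufb4, an accessory subunit of the membrane arm, with 10.3, 8.14 and 10.1 TPM. The 35 means spanned 10.9-fold, from 9.54 to 104 TPM, and the middle 50% of the genes lay between 26.5 and 50.3 TPM.

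The 7 core subunits of complex I that are nuclear-encoded include those that carry the flavin and the iron-sulphur clusters through which electrons pass. Levels of the 7 core genes spanned 3.52-fold. Ndufv2, an iron-sulphur subunit of the NADH-oxidising tip, had 29.1, 66.4 and 32.2 TPM, with replicate 2 well above the others. Ndufs3 and Ndufs7, in the matrix arm, had 39.6 ± 7.99 TPM and 39.1 ± 8.67 TPM, and Ndufs8 had 31.7 ± 8.82 TPM. The lowest were Ndufs1, the largest subunit, with 17.9 ± 2.46 TPM, and Ndufv1, which binds NADH and the flavin, with 11.9, 12.0 and 12.4 TPM. In protein-coding CPM, Ndufv1 had 29.9, 20.3 and 27.9, with replicate 2 the low library. The median of the 28 accessory subunits differed from that of the core subunits by 0.11 ± 0.20 on the log2(TPM + 1) scale (SD, n = 3), above 0 in replicates 1 and 3 and at -0.12 in replicate 2. The exact two-sided sign-flip test over the 3 libraries gave p = 0.50. The smallest p that 3 libraries allow is 0.25, so the test could not decide whether the 2 groups differ. The difference of medians was smaller than its SD between libraries. With means over members in place of medians it was 0.39 ± 0.21.

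Complex III had a median of 73.1 ± 8.80 TPM (SD, n = 3), with its small subunits above its catalytic and core proteins. Uqcrb, the ubiquinone-binding small subunit, had 106, 197 and 106 TPM, nearly the same in replicates 1 and 3 and higher in replicate 2. In protein-coding CPM, Uqcrb had 62.8, 81.7 and 56.7, a 1.44-fold range. The hinge protein gene Uqcrh, Uqcrq and Uqcr10 followed with 107 ± 11.7 TPM, 102 ± 18.1 TPM and 79.1 ± 12.7 TPM, and Uqcr11 had 67.1 ± 6.12 TPM. The core proteins Uqcrc1 and Uqcrc2 had 36.8 ± 7.01 TPM and 24.01 ± 3.52 TPM. The Rieske iron-sulphur protein gene Uqcrfs1 had 24.4 ± 3.04 TPM. The lowest small subunit stood at 67.1 TPM and the highest of the other 3 at 36.8 TPM, and the groups did not overlap in any library.

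Complex IV was split between very abundant genes and silent ones. Its 13 expressed genes had a median of the means of 149 TPM, the highest of the 4 complexes, while the median over all 20 was 65.9 ± 7.49 TPM (SD, n = 3). Cox8a (chromosome 19, 7215153 to 7217616, minus strand), a small membrane subunit, had 182, 195 and 219.9 TPM. Cox4i1 (chromosome 8, 120668222 to 120674207, plus strand), the largest nuclear-encoded subunit and a site of regulation by ATP, had 183, 179 and 221 TPM. In protein-coding CPM, Cox8a had 112.6, 84.7 and 122.7 and Cox4i1 had 162.9, 125.7 and 180.1, so replicate 2 was the low library for both and replicate 3 the highest. Cox5a, Cox6b1 and Cox6a1 had 180.2 ± 35.4 TPM, 159 ± 10.9 TPM and 157 ± 34.9 TPM, and Cox7c and Cox6c had 151 ± 29.6 TPM and 149 ± 20.5 TPM. Ndufa4, once counted as a complex I subunit and now placed in complex IV (chromosome 6, 11900292 to 11907497, minus strand), had 61.7, 68.2 and 67.3 TPM. Counts of Cox4i1 carry an uncertainty, because Gm20388, a gene annotated over it on the same strand, held 2783 counts per library on average against 5857 for Cox4i1.

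In each paralog set of complex IV the form made in most tissues was abundant and the tissue-restricted form was low or had no counts. Cox6a2, the heart and muscle form, was the only 1 of 8 such genes with at least 1 TPM in every library (2.87, 2.00 and 4.25 TPM, from 119, 24 and 132 counts). The general form Cox6a1 exceeded it 41.4-, 93.6- and 38.8-fold in TPM. In the authors' second quantification, made from the reads, Cox6a1 had 77.1, 94.6 and 35.9 TPM and Cox6a2 2.89, 2.57 and 1.42 TPM. The size of the excess, though not its direction, therefore depends on the quantification. Cox7a1, also a heart and muscle form, had 1.02, 0.460 and 0.880 TPM, from 16, 2 and 11 counts. Its counterpart Cox7a2 had 55.6, 67.9 and 81.8 TPM, and the related Cox7a2l, classed here as a supercomplex factor, had 67.0, 63.0 and 79.8 TPM. Whether the Cox7a2l product joins complexes in this mouse strain was not measured. The lung-type Cox4i2, the testis form Cox6b2 and the hypoxia-induced Ndufa4l2 had 1 count each in replicate 1 and 0 in the others. Cox8b (muscle), Cox8c (testis) and Cox7b2 (testis) had no counts in any library. Against a limit of 3 counts in each library, Cox8a was at least 229-fold higher than Cox8b and at least 394-fold higher than Cox8c, and Cox7b (36.8 ± 3.67 TPM) was at least 109-fold higher than Cox7b2, the smallest values of the 3 libraries. Cox7a1 and Cox6b1 lie 430783 bases apart on chromosome 7 with mean levels of 0.787 and 159 TPM.

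**Figure D2:**
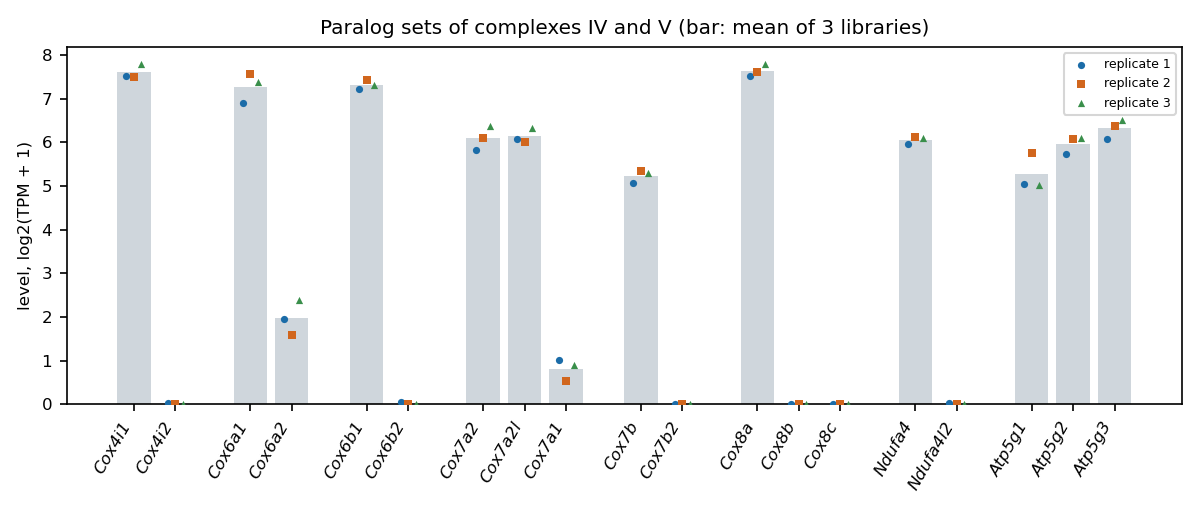
Levels of the paralog sets of complexes IV and V as log2(TPM + 1), with bars for the mean of 3 libraries and points for each library. Every set of complex IV holds an abundant form and a form that is much lower, from no counts up to the 2.00 to 4.25 TPM of Cox6a2, and the 3 Atp5g genes all stand above 5 on average.

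The median was highest in complex V, at 77.5 ± 9.27 TPM (SD, n = 3), where all 17 genes were detected. Atp5b, the catalytic beta subunit of the F1 part (chromosome 10, 128083273 to 128090391, plus strand), was the most abundant of all 80 genes with 238, 490.3 and 268 TPM over all its transcripts. Its coding transcript Atp5b-201 alone had 126, 172 and 139 TPM, below the 182, 195 and 219.7 TPM of the coding transcript Cox8a-201, and the rest lay mostly in the short noncoding Atp5b-206. Replicate 2 stood apart in TPM, but in protein-coding CPM the same gene had 458, 499 and 435, a 1.15-fold range. The other F1 genes Atp5e, Atp5a1, Atp5c1 and Atp5d (epsilon, alpha, gamma and delta) had 110.3 ± 26.8 TPM, 103 ± 8.62 TPM, 77.7 ± 7.24 TPM and 56.9 ± 3.88 TPM. Alpha and beta stand in equal number in the enzyme, while the level of the beta gene was above that of the alpha gene in every library, and on coding transcripts Atp5b-201 also stood above Atp5a1-201 (94.9, 112 and 99.2 TPM). Of the peripheral stalk, Atp5h, Atp5f1, Atp5j and Atp5o had 105 ± 21.1 TPM, 81.2 ± 16.7 TPM, 75.5 ± 12.1 TPM and 72.8 ± 8.46 TPM. The membrane subunits Atp5l, Atp5mpl, Atp5k and Atp5j2 had 137 ± 10.8 TPM, 92.8 ± 3.57 TPM, 78.6 ± 28.8 TPM and 60.4 ± 9.46 TPM. The lowest was Atp5s, coupling factor B, with 1.77, 2.71 and 1.54 TPM.

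Subunit c, which forms the proton-carrying ring, is encoded by 3 genes whose mature proteins are the same, and all 3 were expressed. In replicates 1, 2 and 3, Atp5g3 gave 44.3%, 40.6% and 47.8% of their summed TPM, Atp5g2 gave 34.4%, 33.0% and 35.6%, and Atp5g1 gave 21.3%, 26.4% and 16.6%. In these values the order was the same in every library, and the share of Atp5g1 varied most. The share of Atp5g2 depends on the quantification. In the authors' second table, made from the reads, Atp5g2 had 4.48, 1.00 and 3.95 TPM, and the noncoding gene Gm10175, identical to Atp5g2 over 645 of the 731 bases of the Atp5g2 transcript, had 44.9, 44.6 and 16.7 TPM. In the gene table Gm10175 had 641, 145 and 521 counts against 2385, 887 and 2319 for Atp5g2. In the read-based values Atp5g1 had 21.1, 28.4 and 6.84 TPM, above Atp5g2 in every library, and Atp5g3 had 44.2, 42.2 and 20.3 TPM. The level of Atp5g2 is therefore uncertain. So are the shares of the 3 genes and the order of Atp5g1 and Atp5g2.

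The order of the complexes by mean of the medians was V, III, IV and I, and the ranges over libraries of V, III and IV overlapped. Relative to complex I, the median of log2(TPM + 1) was higher by 1.07 ± 0.13 in complex V, by 0.98 ± 0.21 in complex III and by 0.84 ± 0.19 in complex IV (SD, n = 3), in 3 of 3 libraries each. The exact two-sided sign-flip test gave p = 0.25 for each, the smallest that 3 libraries allow, so none of these could pass 0.05. The complex IV difference depends on its silent paralogs. It was 1.92 when only members whose mean reached 1 TPM were used and -0.95 when means of log2(TPM + 1) replaced medians.

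The subunits encoded in mitochondrial DNA had a higher median than the nuclear-encoded ones, and varied more between libraries. The 13 genes had medians of 300 TPM in replicate 1, 284 in replicate 2 and 115 in replicate 3, against 47.4, 52.0 and 53.8 TPM for the 80 nuclear genes. The difference of medians was 2.64, 2.42 and 1.08 on the log2(TPM + 1) scale (2.05 ± 0.85, SD, n = 3, exact two-sided sign-flip p = 0.25). Relative to the other libraries, the median log2 ratio of the 13 genes in protein-coding CPM was 0.76, 0.25 and -1.26, so replicate 3 was the low library, in 12 of 13 genes below the mean of the others. The nuclear-encoded subunits were not low there, with a median of 0.19. Malat1, a long noncoding RNA that stays in the nucleus, was also lowest in replicate 3 (8329, 3480 and 1444 protein-coding CPM), and the part of fractionation in these values was not tested. Mitochondrial genes have nuclear copies of similar sequence, and with 6.56, 1352 and 2276 counts the level of mt-Co3 is uncertain. Other levels were irregular as well. mt-Atp6 had 59.9, 405 and 158 TPM, and mt-Co2 had 14.6, 17.0 and 7.37 TPM beside 1384, 1827 and 591 TPM for mt-Co1. In protein-coding CPM, mt-Atp6, mt-Co3 and mt-Nd3 were lowest in replicate 1, and 9 of the 13 genes were lowest in replicate 3. The median of the 13 genes shares this uncertainty.

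Complex II and the ATP synthase inhibitor were expressed at levels like those of the subunits. Complex II (succinate dehydrogenase), which is wholly nuclear-encoded, had a median of 52.1 ± 6.42 TPM (SD, n = 3). Sdhb, its iron-sulphur subunit, had 80.4 ± 12.4 TPM, Sdha, its flavoprotein, 53.6 ± 6.17 TPM, and the membrane anchors Sdhd and Sdhc 49.8 ± 5.76 and 42.4 ± 12.9 TPM. Subunits and carriers that the symbol rule leaves out were Ndufab1, the acyl carrier subunit of complex I, at 45.3 ± 9.27 TPM, Cyc1, cytochrome c1 of complex III, at 21.5 ± 3.21 TPM, and Cycs, cytochrome c, at 23.5 ± 6.35 TPM. Atpif1, the inhibitor of ATP hydrolysis by complex V, had 140, 206 and 139 TPM, within the range of the abundant complex IV genes.

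Assembly factors, which help to build the complexes but are not part of them, were far lower than the subunits. Over the 44 listed the median was 5.91 ± 1.02 TPM (SD, n = 3). Of these, 41 were detected. The highest were the complex IV factors Cox17, a copper chaperone (89.4 ± 15.7 TPM), and Coa5 (81.7 ± 19.1 TPM), and the complex III factor Uqcc2 (36.9 ± 9.49 TPM). Citrate cycle and pyruvate dehydrogenase genes had a median of 20.54 ± 3.995 TPM over 17 genes, led by Mdh2, Cs and Idh3b at 56.1 ± 2.18, 44.5 ± 8.99 and 39.6 ± 8.98 TPM. Mitochondrial ribosomal proteins had a median of 13.2 ± 0.92 TPM over 78 genes. Genes whose symbols begin with Rpl or Rps and a digit had 154 ± 12.5 TPM over 98 genes. That symbol rule takes in the cytosolic ribosomal proteins but can also match genes for other proteins.

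Regulators of these genes were expressed at low levels. Of 14, 12 were detected, with a median of 5.32 ± 0.35 TPM over all 14 (SD, n = 3). Ppargc1a, the coactivator PGC-1 alpha, was nearly absent, with 1, 2 and 2 counts. Its relatives Pprc1 and Ppargc1b had 8.32 ± 3.43 and 2.08 ± 0.39 TPM, and the muscle regulator Perm1 had 0.816 ± 0.24 TPM. The DNA-binding factors whose motifs were searched above were present, with Yy1 at 10.1 ± 3.11 TPM, Gabpa at 7.85 ± 0.98 TPM and Nrf1 at 6.19 ± 0.93 TPM, beside Gabpb1 at 6.29 ± 0.97, Gabpb2 at 4.41 ± 0.84 and the receptor gene Esrra at 11.9 ± 2.96 TPM. The mitochondrial transcription factors Tfam, Tfb1m and Tfb2m and the polymerase Polrmt had 5.26 ± 0.88, 2.41 ± 0.31, 2.90 ± 0.40 and 5.58 ± 1.21 TPM.

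**Figure D3:**
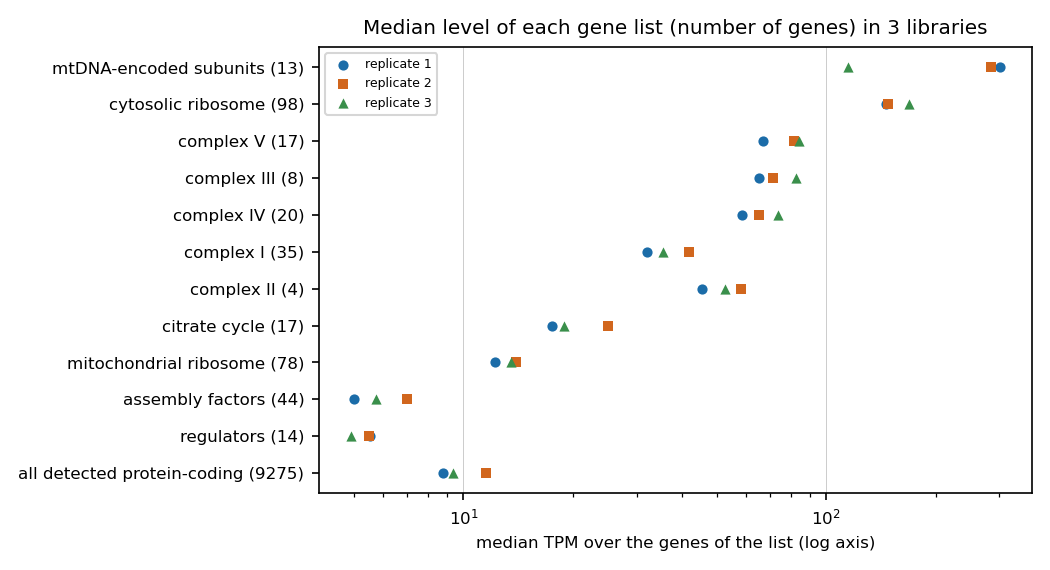
Median TPM over the genes of each list (log axis), with a point for each of the 3 libraries and the number of genes in brackets. The subunits of complexes I to V stand above the assembly factors, the regulators and the median of all detected protein-coding genes in every library, and the mitochondrially encoded genes are lowest in replicate 3.

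Most reads of the subunit genes were assigned to coding transcripts, with exceptions in a few genes named here after their values were seen. Of the counts of the 80 genes, 93.2%, 91.2% and 94.1% went to transcripts annotated as protein coding, 2.10%, 3.92% and 2.21% to processed transcripts, 2.76%, 3.29% and 2.17% to transcripts marked for nonsense-mediated decay, and 1.90%, 1.55% and 1.51% to retained introns. Expressed protein-coding genes as a whole had 94.95%, 95.94% and 96.33% of counts on coding transcripts, 0.947%, 0.913% and 0.812% on processed transcripts, 1.43%, 1.365% and 1.35% on transcripts marked for decay, and 2.65%, 1.77% and 1.49% on retained introns. Pooled over the 80 genes, counts thus had a lower coding share and larger shares of decay and processed transcripts in every library. These pooled shares weight abundant genes and lean on a few of them. Atp5f1-203 alone held 3822, 1770 and 2357 of the counts on transcripts marked for decay. Atp5b-206 alone held 2198, 1850 and 1973 of those on processed transcripts. The pooled shares therefore do not describe the subunit genes in general. By gene, the coding share averaged at least 90% in 59 of 73 expressed genes, near the background of 81.1% of 9596 protein-coding genes. It was lowest in Ndufa5, at 31.4%, 19.1% and 36.5%, and in Atp5j, at 46.8%, 27.0% and 46.7%. In Atp5j the retained-intron transcript Atp5j-208 held 50.8%, 72.7% and 52.4% of counts, and replicate 2 was the high library. In Atp5f1 the transcript Atp5f1-203, annotated for decay, held 52.9%, 56.0% and 36.7%, and replicate 3 was the low one. Levels of these genes therefore count RNA that may not encode the subunit.

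In 3 genes with their highest TPM in replicate 2, named after their values were seen, shorter transcripts held a larger share of counts there. The processed transcript Atp5b-206, 478 bases long, held 10.02%, 18.96% and 11.17% of Atp5b counts, and the effective length of the gene was 1019, 742 and 1015 bases. In Cox5b, with 62.0, 173 and 92.8 TPM, the short processed transcript Cox5b-205 held 7.37%, 26.4% and 12.6%. In Ndufv2 the shorter of its main coding transcripts, Ndufv2-201, held 37.0%, 62.9% and 44.3%. Protein-coding CPM, which uses no length, was 59.4, 74.7 and 70.7 for Cox5b and 56.8, 78.3 and 52.2 for Ndufv2.

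Similar sequences elsewhere held counts that bear on Atp5g2 and Ndufb4. By blastn, 27 annotated copies that matched 50% or more of a coding transcript at 95% identity or more were found for 14 of the 80 genes. Of these copies, 12 had no counts in any library and 1, Gm10175, held at least 5% of the counts of its pair. The next were Gm15920, a pseudogene of Ndufa12, with 39.4, 21.9 and 32.1 counts, and Gm10221, a copy of Atp5l. Ndufb4c, a pseudogene named for Ndufb4 that is not among these 27, had 691.5, 194.8 and 383.5 counts against 676.5, 161.2 and 506.5 for Ndufb4, so the level of Ndufb4, the lowest of complex I, is uncertain. The 5 genes with the largest excess of the read-based table over the gene table, in protein-coding CPM, were Cox6a2 (0.72 on the log2 scale), Ndufa12 (0.15), Ndufs8 (0.11), Atp5mpl (0.10) and Uqcrc2 (0.06). The 5 with the largest deficit were Atp5g2 (-2.73), Ndufb4 (-0.13), Ndufs6 (-0.07), Uqcrb (-0.06) and Uqcrc1 (-0.06). Of the 80 genes, 36 overlap another annotated gene, 12 of them on the same strand, where Atp5o overlaps its own second identifier. On the same strand, Gm20388 over Cox4i1 held 2783 counts on average, and the next, Gm49356 over Ndufb9, held 12.0. On either strand, 5 genes were overlapped by a gene with more counts. Use of strand in counting is not given in the sources used here.

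Most subunit genes were lowest in replicate 2, and more were highest in replicate 3 than in either other library. Of the 73 genes expressed (mean TPM of 1 or more), 51 were lowest in replicate 2 (69.9%, against 34.9% of 9604 protein-coding genes) and 39 were highest in replicate 3 (against 22.3%). Their median log2 ratio to the mean of the other libraries was 0.08, -0.25 and 0.19 in replicates 1, 2 and 3, while all 9604 genes had 0.09, -0.02 and -0.09. With 1 library against the other 2 there is no test of these values. Scaling by TMM shifted the median of all genes by -0.15, 0.03 and 0.13. Relative to all genes the members then stood at -0.03, -0.24 and 0.28, against -0.02, -0.23 and 0.28 in protein-coding CPM. The sign for replicate 1 itself turned to -0.08. Under TMM 46 genes were lowest in replicate 2 (background 32.5%) and 59 were highest in replicate 3 (background 40.4%).

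By complex, the replicate 2 ratio was -0.25 in complex I, -0.31 in complex III, -0.34 in complex IV and -0.24 in complex V. Within complex I the accessory subunits had -0.32 and were lowest in replicate 2 in 21 of 28 genes, and the core subunits had -0.03 and were lowest there in 2 of 7. The difference between these was not tested. Role goes together with length here. Effective lengths of the core genes ran from 541 bases in Ndufs7 to 1943 in Ndufs1, while most accessory genes were under 500 bases. Short genes in general had lower replicate 2 ratios, as given below. Genes with Rpl or Rps symbols, as listed above, had -0.49, mitochondrial ribosomal protein genes -0.21, complex II -0.11 and citrate cycle genes -0.04.

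**Figure D4:**
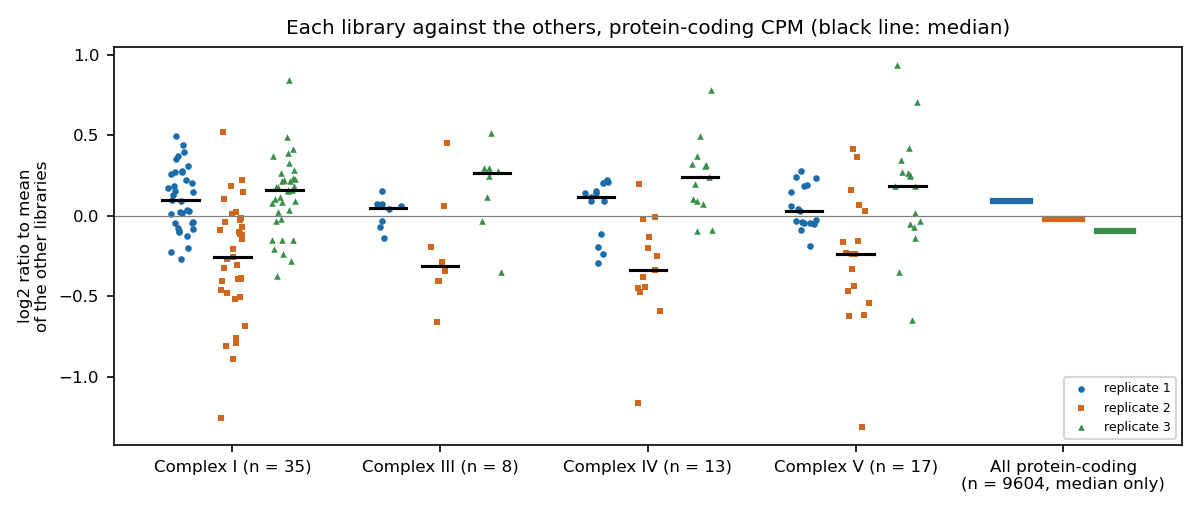
Log2 of protein-coding CPM (offset 0.1) in each library over that in the other libraries, for the 73 expressed genes, by complex, with a black line at each median, and the medians of all 9604 protein-coding genes at the right. In each complex the replicate 2 median lies below 0 and the replicate 3 median above it.

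The genes with the widest range over libraries were Atp5k, Cox6a2, Ndufa1, Ndufa2 and Atp5e. Atp5k, a small membrane subunit of complex V (chromosome 5, 108433244 to 108434448, minus strand), had 21.2, 10.3 and 30.3 protein-coding CPM, a 2.92-fold range. Ndufa1, a membrane subunit of complex I, had 26.7, 11.1 and 26.7, with replicates 1 and 3 nearly equal and replicate 2 low. Ndufa2, an accessory subunit of the matrix arm, had 27.4, 18.4 and 41.2. A range of at least 1.5-fold was seen in 15 of 73 genes (20.5%), close to the 19.1% of all protein-coding genes. The steadiest over all transcripts were Ndufs4 (24.2, 24.7 and 24.8, a 1.03-fold range), Uqcrc1 (81.7, 85.2 and 81.8), Atp5h, Ndufc1 and Atp5f1, with ranges of up to 1.07-fold. Coding transcripts held 50.9%, 34.3% and 46.45% of Ndufs4 counts and 58.4%, 47.4% and 59.4% of Ndufc1 counts. For Atp5f1 they held 45.7%, 43.7% and 62.8%, so these ranges do not describe the coding RNA of Ndufs4, Ndufc1 and Atp5f1. In Uqcrc1 and Atp5h the coding share averaged 99.1% and 98.2%. The 4 highest log2 ratios in replicate 2, named after their values were seen, were those of Ndufv2, Uqcrb, Atp5s and Atp5g1, at 0.52, 0.45, 0.42 and 0.37.

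Transcript length moved with the replicate 2 ratio, in the subunits and in other genes. The 42 subunit genes with an effective length under 500 bases had a median of -0.36 in replicate 2 and the 31 longer ones -0.16. Among all expressed protein-coding genes the 341 under 500 bases had -0.34 and the 9263 longer ones -0.01. The 255 short genes that remained without the subunits and the genes with Rpl or Rps symbols had -0.30. Over the 73 genes the Spearman rho of the ratio with effective length was 0.28, and over 9604 genes 0.31, as descriptions of genes that share the same libraries. Whether length or depth sets the subunits' lower level in replicate 2 was not tested.

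**Figure D5:**
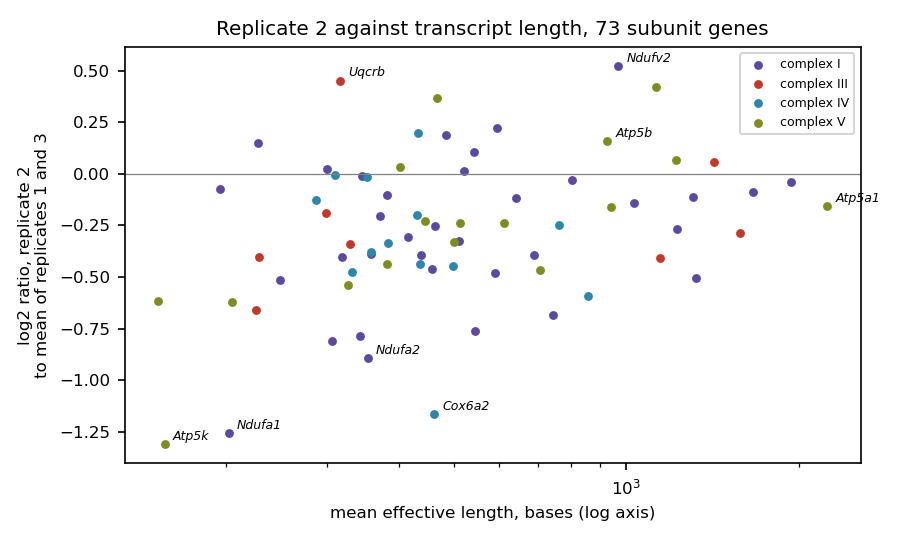
Log2 ratio of replicate 2 to the mean of replicates 1 and 3 against mean effective length (log axis) for the 73 expressed genes, coloured by complex. The lowest points are Atp5k at -1.31 and Ndufa1 at -1.25, both among the shortest genes, and Ndufv2 is the highest at 0.52.

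The 80 genes lie on 19 chromosomes, with few near each other. On chromosome 10, Atp5d, Ndufs7 and Uqcr11, from 3 different complexes, lie within 500000 bases, with gaps of 103303 bases between the first pair and 146203 between the second. Their means were 56.9, 39.1 and 67.1 TPM. On chromosome 19 the core complex I genes Ndufs8 and Ndufv1 lie 94610 bases apart, with 31.7 and 12.1 TPM.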

How the data were processed

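For each of the 3 libraries the authors deposited, per the file headers, a gene table (expected counts, TPM, posterior mean TPM, effective lengths), a transcript table of the same kind, and another transcript table, made from the reads, that gives estimated counts with TPM. Build mm10 and GENCODE release M21 are named in deposited description files. Expected counts as deposited are not normalized, and TPM was scaled within each library by the authors. For aligner and counter, names were not given in the sources used here. Effective lengths in bases were used as deposited, and credibility bounds of TPM were not used. Numbered features outside the annotation held 0.194%, 0.247% and 0.0227% of counts and were left out of all values. Atp5o was represented by its abundant identifier.

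Protein-coding CPM is a count over the sum for nuclear protein-coding genes (times 1000000, offset 0.1). Expressed means a mean of at least 1 TPM, and detected means 1 TPM in every library. Differences between complexes used medians of log2(TPM + 1), in which low genes differ less because of the pseudocount of 1, and an exact two-sided sign-flip test. Named genes were the 4 highest and the lowest detected gene of each complex, paralog sets, core complex I genes (1 of which is not reported here), genes below 1 TPM, the 5 widest and 5 narrowest ranges, the 5 largest differences between tables in each direction, and the members of the smaller lists. Members and lists were chosen with earlier results of these data known. Alternative scalings used edgeR 4.0.16 and DESeq2 1.42.0 (R 4.3.3) on counts rounded to whole numbers. Copies were found with blastn. Ratios and the sign-flip test were tested on simulated data. Scripts ran in Python 3.11.15 with pandas 2.3.3, numpy 2.4.6 and scipy 1.17.1, and figures were drawn with matplotlib 3.10.9.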

Additional observations from a re-analysis of the deposited data

Results flagged for a closer look

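Of the genes with a subunit-like symbol that the rule leaves out, Ndufb1-ps and Ndufb4c held counts above the limit that a count of 0 allows in every library. Of the others, Cox6c2 had 1.06, 0 and 2.12 counts and the rest had none. Ndufb1-ps, annotated as a noncoding gene at a bidirectional promoter, had 42.0 TPM on average (42.3, 27.2 and 56.6 in replicates 1, 2 and 3), close to the median of complex I. Ndufb4c, annotated as a processed pseudogene, had 40.4 TPM (44.7, 45.5 and 31.0), more than the 9.54 TPM of Ndufb4 itself. Gm10175, the copy of Atp5g2, had a mean of 436 expected counts.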

How the results depend on the processing

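Of 118 alternatives to the 15 main values, 92 counted as kept, 22 as moved and 4 turned the sign. Kept means within 1 SD of the libraries for levels and ratios, within 1.5-fold for counts, and the same sign for differences between groups, whatever their size. Of these differences, complex IV minus complex I went from 0.84 to 1.92 with expressed members only, complex III minus complex I from 0.98 to 0.73 and accessory minus core subunits from 0.11 to 0.39 with means over members. For all subunits and complexes I, III, IV and V in that order, the medians of 51.1, 36.4, 73.1, 65.9 and 77.5 TPM became 148, 104, 212, 190.4 and 223 when TPM was rescaled to nuclear protein-coding genes, 22.8, 17.0, 31.8, 30.4 and 35.2 in the read-based table, and 138, 103, 198, 188 and 215 when that table was rescaled in the same way, an alternative chosen after seeing the data. Nuclear protein-coding genes hold 20.5%, 21.4% and 7.95% of the read-based TPM. With expressed members only, the median was 55.6 TPM for all subunits and 142 for complex IV, whose silent paralogs then drop out. Means over members were 64.0 TPM for all subunits, 77.2 for complex IV and 92.1 for complex V. The 34 members in the top 10% became 20 in the read-based table (the cause was not tested) and 64 for the top 25%. Complex IV minus complex I turned to -0.95 with means of log2(TPM + 1), which weight the silent paralogs. The replicate 1 ratio of 0.08 turned to -0.0843 under TMM, -0.0844 under DESeq2 size factors and -0.0389 against replicate 3 alone. Leaving out each library in turn changed none of the 12 level, count and difference results beyond these limits, and the number detected stayed at 73. No paired analysis was possible because there is 1 group. Depth limits genes near 3 counts, most of all in replicate 2.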
